A study of Mus musculus with 12 samples.

Results

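The 10 genes described here, Dcx, Cd24a, Crmp1, Dpysl3, Dpysl5, Stmn1, Tubb3, Tubb2b, Igfbpl1 and Plppr1, are cytoskeleton and surface genes used as markers of neuroblasts and immature neurons. They are 10 of the 50600 gene identifiers in the count table. The list was chosen by measured levels, with those of the 12 libraries known, so the differences between cell types are given as a description, without a test. Astrocytes, progenitors and stem cells were sorted from the dentate gyrus of Nestin-GFP mice of 6 to 9 weeks, in which a Nestin promoter drives green fluorescent protein (GFP). The sort used 2 signals, GFP and surface staining for the glutamate transporter GLAST. Stem cells carried both, progenitors GFP alone and astrocytes GLAST alone. Dead cells and cells stained for endothelial (CD31), leukocyte (CD45) or oligodendroglial (O1, O4) antigens were left out. There were 4 libraries of each cell type, each made from 50 cells, and no treatment or mutation separated the groups.

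The dentate gyrus is one of few regions of the adult rodent brain in which neurons are still made. Radial stem cells give rise to dividing progenitors, and these give rise to neuroblasts that extend a neurite, migrate a short way and become granule neurons. Growth of a neurite rests on a dynamic microtubule array that is built from neuronal tubulin isotypes, bound by doublecortin, loosened by stathmin and coupled to guidance cues through the collapsin response mediator proteins (CRMPs), while surface proteins mark the cell to its neighbours.

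Totals were 5357232 to 6253680 counts in astrocytes, 9041498 to 12535028 in progenitors and 5031166 to 10435711 in stem cells. Levels are in CPM, counts relative to library size, scaled by TMM factors. No molecular identifiers were named, so copies made by amplification were counted, and every interval below covers counting error only. Astrocyte and progenitor libraries carry letters a to d and stem cell libraries the numbers 1 to 4, and none of these pairs a library with one of another cell type. The sort was checked against its own genes and against 7 lists of 8 cell type markers. Slc1a3, which encodes GLAST, was at 3797 to 6158 CPM in astrocytes, 2235 to 3403 in progenitors and 6768 to 9249 in stem cells, so its mRNA was not absent from the GLAST-negative cells. Nes, the gene whose promoter drives the reporter, was at 0 in every astrocyte library, 0.0835 to 20 CPM in progenitors and at most 0.521 in stem cells, so its mRNA was near 0 in GFP-positive stem cells too. The 8 oligodendrocyte precursor markers summed to 2118 to 3616 CPM in progenitors, 108 to 344 in astrocytes and 73.0 to 212 in stem cells, and all 8 had at least 10 counts in every progenitor library. The mature neuron markers summed to 679 to 5546 CPM in astrocytes, 233 to 288 in progenitors and 263 to 489 in stem cells, with the highest sum in astrocyte a. Camk2a alone made up 62.7 to 83.0% of this sum in astrocytes and stem cells and 19.5 to 28.0% in progenitors. Without it, a choice made after seeing the data, the sums were 219 to 1495, 180 to 217 and 82.3 to 155 CPM, so that progenitors then lay above stem cells. Oligodendrocyte markers summed to 337 to 3205 CPM in astrocytes, again highest in astrocyte a, 249 to 417 in progenitors and 477 to 821 in stem cells. Mural cell markers summed to 2496, 42.4, 2153 and 935 CPM in progenitors a to d, against 57.5 to 200 in astrocytes and 71.4 to 111 in stem cells. Astrocyte markers summed to 12598 to 16892 CPM in astrocytes, 5952 to 8228 in progenitors and 18959 to 24967 in stem cells, while microglial markers reached at most 288 and endothelial markers at most 148 in any library. In such bulk libraries fewer cells of a type and less RNA per cell cannot be told apart, and the part of these other cell types in the values below was not tested.

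**Figure D1:**
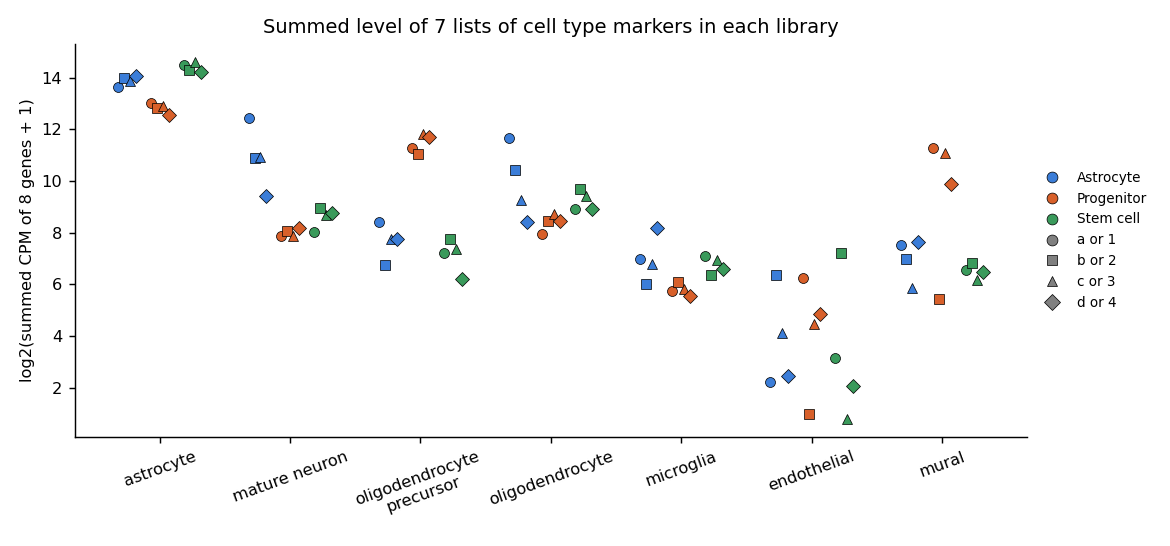
Summed level of each list of 8 marker genes in each library, as log2(summed CPM + 1), with 1 point per library, coloured by cell type and shaped by replicate. Oligodendrocyte precursor markers lie at 2118 to 3616 CPM in progenitors and at most 344 elsewhere, mature neuron markers reach 5546 CPM in astrocyte a (1495 without Camk2a), and mural markers vary between 42.4 and 2496 CPM among progenitors.

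Of the 10 genes, 9 were higher in every progenitor library than in any other library, and 1, Tubb2b, was high everywhere. Among the 9, Stmn1 was well measured in all 3 cell types and Dpysl3 in every stem cell library. In stem cells, 3 of the 10 had at least 10 counts in every library, 2 only in some and 5 in none. In astrocytes the numbers were 2, 3 and 5. Against stem cells, every progenitor library exceeded every stem cell library for 9 of the 10, and the median log2 fold change was 8.02, against 0.04 over the 15427 genes tested. Of all those genes, edgeR's quasi-likelihood test called 4.95% higher and 3.66% lower at a Benjamini-Hochberg adjusted p under 0.05. Against astrocytes, 9 again did not overlap, and the median was 7.21, against -0.03 over 14806 genes, of which 6.18% were called higher and 2.45% lower. These values follow from how the list was made and are read no further. The share of all genes without overlap was not counted, and the shares called are another measure. The comparisons share the progenitor libraries.

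**Figure D2:**
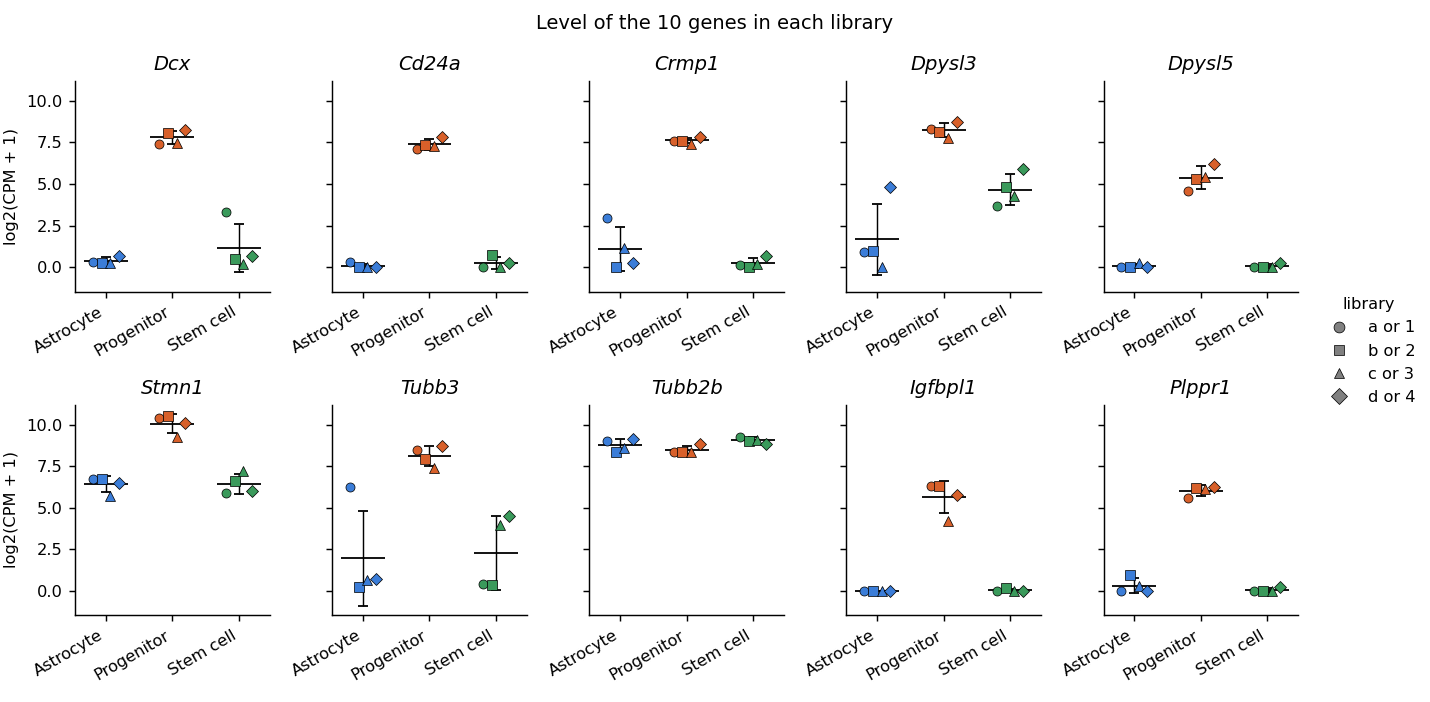
Level of each of the 10 genes in each library as log2(CPM + 1), with 1 point per library, shaped by replicate, and the mean and SD (n = 4) of each cell type in black. Progenitor libraries lie above all others in 9 panels, whereas in the Tubb2b panel the cell types overlap. Single libraries stand out for Dcx (stem cell 1), Dpysl3 (astrocyte d) and Tubb3 (astrocyte a).

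Dcx (chromosome X, 143855842 to 143933311, minus strand, GRCm38) encodes doublecortin, which binds between protofilaments and stabilizes microtubules in migrating neurons. It was at 172, 271, 179 and 300 CPM in progenitors a to d (230 ± 64.7, SD, n = 4). It was at 0.213, 0.183, 0.198 and 0.613 CPM in astrocytes, which is 6 counts over the group. In stem cells it was at 8.82, 0.391, 0.125 and 0.557 CPM. Stem cell 1, with 86 of the 93 counts of its group, thus stood apart from its replicates but remained far under every progenitor library. The log2 fold change was 6.42 ± 1.05 (SE) for progenitors against stem cells, and 9.32 without stem cell 1. Against astrocytes it was 9.52 ± 0.68.

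Tubb3 (chromosome 8, 123411424 to 123422015, plus strand), the neuronal class III beta-tubulin, was at 358, 243, 165 and 421 CPM in progenitors (297 ± 114, SD, n = 4). Stem cells 1 and 2 had 0.308 and 0.261 CPM, and stem cells 3 and 4 had 14.6 and 21.2. Astrocytes had 74.5, 0.183, 0.593 and 0.613 CPM. The high value is that of astrocyte a, the library with the highest sums of mature neuron and oligodendrocyte markers, and 350 of the 357 astrocyte counts of Tubb3 are in it. The log2 fold change of progenitors was 5.0 ± 1.14 against stem cells and 4.02 ± 1.59 against astrocytes, which became 5.85 without stem cell 4 and 9.28 without astrocyte a.

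Tubb2b (chromosome 13, 34126748 to 34130466, minus strand), a beta-tubulin isotype abundant in the developing brain, had a different pattern. It was at 322, 330, 328 and 456 CPM in progenitors, 508, 330, 384 and 572 in astrocytes and 614, 525, 538 and 448 in stem cells. The cell types overlapped in each comparison, and progenitors had the lowest mean (359 ± 64.9, against 448 ± 111 and 531 ± 67.9, SD, n = 4). The log2 fold change was -0.60 ± 0.17 against stem cells, and it was between -0.51 and -0.63 with other normalizations, filters and tests. Against astrocytes it was -0.32 ± 0.28, or 0.05 when each library had to reach 10 counts. In these libraries Tubb2b therefore goes against the name of the list, as its level was not particular to the cells with Dcx.

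The coding sequences of Tubb2b and Tubb2a are 96.5% identical, and 32.2% of the 75-base runs of the Tubb2b transcript also occur in transcripts of other genes (29.3% in Tubb2a), whereas no run of Tubb3 does. Reads that lie within these runs could have been placed on either gene or left out. The libraries were sequenced in pairs of reads longer than 75 bases, so percentages of runs, here and below, are not shares of reads. To show where the isotypes can be told apart, the last 75 coding bases of the 3 genes, all in one exon, follow on the coding strand, with capitals for bases that do not match Tubb2b in a pairwise alignment. They lie at chr13:34127471-34127545 and chr13:34074468-34074542 on the minus strand and chr8:123421608-123421682 on the plus strand (GRCm38).
Tubb2b: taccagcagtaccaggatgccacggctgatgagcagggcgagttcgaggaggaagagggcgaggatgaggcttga
Tubb2a: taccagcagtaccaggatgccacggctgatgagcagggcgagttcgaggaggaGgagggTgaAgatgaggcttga
Tubb3: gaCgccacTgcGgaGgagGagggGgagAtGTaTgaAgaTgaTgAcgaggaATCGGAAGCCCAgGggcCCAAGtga
Here Tubb2a has 3 and Tubb3 has 32 bases that do not match, so a read across this end separates Tubb3 well and Tubb2a from Tubb2b only by single bases.

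Stmn1 (chromosome 4, 134468320 to 134473843, plus strand) encodes stathmin, which sequesters tubulin dimers and promotes microtubule disassembly. It was the most abundant of the list in progenitors, at 1344, 1452, 608 and 1073 CPM. It was also well measured elsewhere, at 107, 105, 51.9 and 89.7 CPM in astrocytes and 57.4, 96.4, 148 and 62.6 in stem cells. Thus Stmn1 was not absent from any library, yet the lowest progenitor library was several times the highest of the others. The log2 fold change of progenitors was 3.58 ± 0.38 against stem cells and 3.67 ± 0.37 against astrocytes. A miRNA gene, Gm23634, covers 3.43% of its exonic bases, and 30.5% of its 75-base runs also occur in Gm11223.

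Crmp1, Dpysl3 and Dpysl5 encode CRMPs, cytosolic proteins that bind tubulin and relay guidance signals in the growth cone. Crmp1 (chromosome 5, 37241940 to 37292133, plus strand) was the most even gene among progenitors, at 194, 194, 172 and 226 CPM. It was at 6.60, 0, 1.19 and 0.204 CPM in astrocytes, highest in astrocyte a, and at most 0.557 in stem cells (5 counts over the group). Its log2 fold change was 10.06 ± 0.56 against stem cells, or 11.06 without stem cell 4, and 6.65 ± 1.28 against astrocytes, or 8.68 without astrocyte a. Dpysl3 (chromosome 18, 43320984 to 43438286, minus strand) was at 317, 279, 221 and 430 CPM in progenitors. Unlike Crmp1 it had at least 10 counts in every stem cell library, at 11.7, 27.0, 18.1 and 57.8 CPM. In astrocytes it was at 0.852, 0.913, 0 and 27.4 CPM, with 134 of 143 counts in astrocyte d, the library with the lowest sum of mature neuron markers (679 CPM). Its log2 fold change was 3.40 ± 0.49 against stem cells, or 4.02 without stem cell 4, and 5.42 ± 1.46 against astrocytes, or 9.03 without astrocyte d. Dpysl5 (chromosome 5, 30711564 to 30799375, plus strand) was the least abundant per length, at 22.7, 38.1, 42.2 and 73.8 CPM in progenitors. Stem cells and astrocytes had 1 count each (in stem cell 4 and astrocyte c), so a ratio of pooled levels is given, which was 1321 (exact 95% interval 237 to 52204) against stem cells and 863 (155 to 34119) against astrocytes. No 75-base run of these 3 genes occurs in another gene, and the coding sequences of Crmp1 and Dpysl3 are 69.5% identical, against 51.4% for Crmp1 and Dpysl5.

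The surface and secreted proteins were near 0 outside progenitors. Cd24a (chromosome 10, 43578284 to 43584265, plus strand) encodes a small glycoprotein anchored to the membrane by lipid, which is used to sort neuroblasts. It was at 135, 161, 156 and 228 CPM in progenitors, at 0, 0.652, 0 and 0.186 in stem cells, and had 1 count over the astrocyte libraries, in astrocyte a. The log2 fold change was 9.62 ± 0.74 against stem cells, or 11.52 without stem cell 2, and the pooled ratio against astrocytes was 3383 (607 to 133636). Plppr1 (chromosome 4, 49059273 to 49340259, plus strand) encodes a membrane protein related to lipid phosphatases that induces filopodia. It was at 46.1, 71.2, 68.7 and 75.9 CPM in progenitors, against 0, 0.913, 0.198 and 0 in astrocytes and 1 count over stem cells, in stem cell 4. The pooled ratio was 1980 (355 to 78244) against stem cells, and the log2 fold change against astrocytes was 7.77 ± 1.37, or 9.65 without astrocyte b. Igfbpl1 (chromosome 4, 45809468 to 45826923, minus strand) encodes a secreted protein related to the insulin-like growth factor binding proteins. It was at 78.9, 77.2, 17.6 and 52.4 CPM in progenitors, had 1 count over stem cells, in stem cell 2 (pooled ratio 1807, 324 to 71392), and 0 counts over astrocytes. Against the 3 counts over the group that a count of 0 allows, it was at least 394-fold higher in progenitors than in astrocytes.

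**Figure D3:**
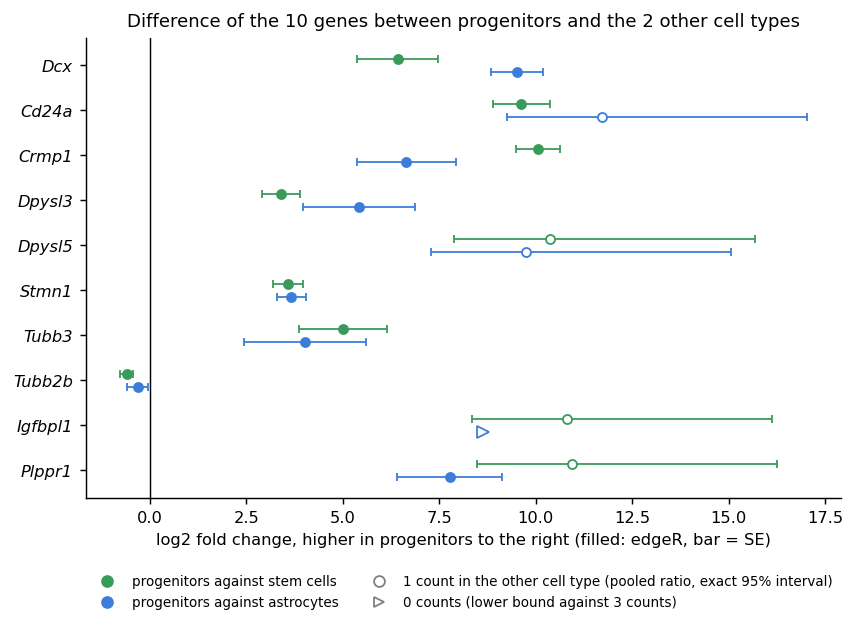
Log2 fold change of progenitors over stem cells (green) and over astrocytes (blue) for each of the 10 genes. Filled points are edgeR values with bars for 1 SE, open circles are pooled ratios with exact 95% counting intervals where the other cell type had 1 count, and the triangle is the lower bound for Igfbpl1 (0 counts in astrocytes). Tubb2b lies at -0.60 and -0.32, Stmn1 at 3.58 and 3.67, and all others at 3.40 or more.

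Promoter windows, from 250 bases before to 50 after a transcript start, were found in RefSeq (GRCm38.p6) for 5 of the 10 genes. They are shown for Dcx, Tubb3, Dpysl5 and Plppr1, since these genes were high in the same libraries. The windows are chrX:143933170-143933469 (minus strand), chr8:123411303-123411602, chr5:30711314-30711613 and chr4:49059212-49059511 (plus strand), and capitals mark a motif match.
Dcx: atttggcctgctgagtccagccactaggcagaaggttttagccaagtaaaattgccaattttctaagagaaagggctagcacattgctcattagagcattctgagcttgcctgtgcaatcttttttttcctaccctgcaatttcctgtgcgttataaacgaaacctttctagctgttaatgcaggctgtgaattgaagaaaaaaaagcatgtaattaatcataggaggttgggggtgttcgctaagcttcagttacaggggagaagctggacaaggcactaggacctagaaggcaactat
Tubb3: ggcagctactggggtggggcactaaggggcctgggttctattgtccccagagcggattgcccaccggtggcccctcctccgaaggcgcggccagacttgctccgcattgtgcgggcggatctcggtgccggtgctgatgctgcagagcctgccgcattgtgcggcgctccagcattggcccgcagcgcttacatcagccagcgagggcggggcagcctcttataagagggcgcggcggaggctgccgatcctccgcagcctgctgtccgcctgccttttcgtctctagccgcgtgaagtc
Dpysl5: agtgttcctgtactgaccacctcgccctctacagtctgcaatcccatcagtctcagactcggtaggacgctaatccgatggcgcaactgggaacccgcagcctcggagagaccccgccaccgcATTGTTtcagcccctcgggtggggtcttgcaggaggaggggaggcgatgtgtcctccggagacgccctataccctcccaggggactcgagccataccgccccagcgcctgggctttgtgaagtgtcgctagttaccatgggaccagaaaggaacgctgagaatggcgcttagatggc
Plppr1: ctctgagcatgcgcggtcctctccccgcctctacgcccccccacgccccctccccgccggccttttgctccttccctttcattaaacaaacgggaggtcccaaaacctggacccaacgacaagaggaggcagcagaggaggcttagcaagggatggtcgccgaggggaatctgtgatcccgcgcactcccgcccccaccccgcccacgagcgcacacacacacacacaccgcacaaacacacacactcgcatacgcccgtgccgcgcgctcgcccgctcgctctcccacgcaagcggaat
The motifs searched on both strands were CAGATG and CAGCTG, E-boxes of the kind bound by neurogenic bHLH factors, and AACAAT, of the kind bound by SOX factors. They occur in 17.2%, 16.3% and 10.7% of the 32851 windows of all genes. Among the 7 windows of the 5 genes (Crmp1 and Dcx have 2 each) the single match was an AACAAT on the reverse strand in Dpysl5, its first base 127 bases before the start. GC content was 43% in the Dcx window shown and 67.3% in that of Tubb3, and reached 77% in 1 window of Crmp1, against a median of 52.7% over all windows.

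Per kilobase of exon, a scale on which genes can be compared, the mean level in progenitors was 582 CPM for Stmn1, 159 for Tubb3, 156 for Tubb2b, 65.9 for Cd24a, 47.2 for Dpysl3, 27.9 for Crmp1, 18.2 for Dcx, 17.4 for Igfbpl1, 9.01 for Plppr1 and 5.99 for Dpysl5. The order of neighbours such as Tubb3 and Tubb2b, or Dcx and Igfbpl1, lies within the spread of the libraries. In stem cells Tubb2b led at 232, followed by Stmn1 at 47.5, Tubb3 at 4.87 and Dpysl3 at 4.33, and in astrocytes Tubb2b led at 195, followed by Stmn1 at 46.0. Tubb3 came next at 10.2, but it was at 0.248 without astrocyte a, under Dpysl3 at 1.43.

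The list varied among the progenitor libraries as well. Progenitor d was highest for 8 of the 10 genes, while progenitor a and progenitor c were lowest for 5 each. The highest library exceeded the lowest 4.47-fold for Igfbpl1, 3.25-fold for Dpysl5 and 2.54-fold for Tubb3, but only 1.31-fold for Crmp1 and 1.42-fold for Tubb2b. Progenitor c was at 0.312 of the progenitor mean for Igfbpl1, 0.544 for Stmn1 and 0.557 for Tubb3, yet at 1.05 for Plppr1. Progenitor a was at 1.40 for Igfbpl1 but at 0.514 for Dpysl5. The genes therefore did not rise and fall as one across these libraries. Oligodendrocyte precursor markers were highest in progenitors c (3616 CPM) and d (3357), and mural markers were lowest in progenitor b.

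Read as parts of a family, the beta-tubulin mRNA of progenitors had another make-up. The listed genes were chosen by measured levels, so a larger progenitor share of Tubb3, Dcx, Crmp1, Dpysl3, Dpysl5 or Plppr1 follows from that choice. The shares here and in the families below are therefore a description, without a test. Tubb3 gave 15.4% ± 3.67 (SD, n = 4) of the beta-tubulin CPM per kilobase in progenitors, with 17.3, 13.9, 11.1 and 19.4% in the libraries, against 1.08% ± 2.09 in astrocytes (4.22% in astrocyte a) and 0.61% ± 0.77 in stem cells. Tubb2b gave 15.8% ± 2.36 in progenitors, 30.0% ± 7.36 in astrocytes and 25.4% ± 3.16 in stem cells. Tubb2a gave 29.1, 47.4 and 50.3% in progenitors, astrocytes and stem cells, and Tubb5 gave 17.1, 4.13 and 3.91%. In progenitor b Tubb5 (27.0%) was above Tubb2a (26.0%), and so it was in the progenitor mean when the shares were taken of CPM without length (25.8 and 21.6%). The summed beta-tubulins were at 1001 ± 166 CPM per kilobase in progenitors, 680 ± 222 in astrocytes and 922 ± 156 in stem cells. Progenitors and stem cells thus overlapped in the sum. Of its parts, the Tubb3 share differed as the choice of the list had fixed. The shares of Tubb2a and Tubb5, which are outside the list, did not overlap between progenitors and stem cells either. Those genes too were chosen with earlier results known.

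Among the CRMPs, the family sum was 124 ± 19.5 CPM per kilobase in progenitors, 23.4 ± 4.42 in astrocytes and 31.3 ± 7.08 in stem cells. Dpysl2 made up 85.4% ± 16.3 of it in astrocytes and 83.3% ± 7.75 in stem cells but 30.9% ± 4.79 in progenitors. Its own level was highest in progenitors, at a mean of 170 CPM, against 88.7 in astrocytes and 117 in stem cells. The smaller share there is therefore not a lower level. In progenitors Dpysl3 gave 37.6% ± 4.93, Crmp1 22.6% ± 0.94 and Dpysl5 4.75% ± 1.74. The sum of the doublecortin family did not separate the cell types (47.1 ± 4.30, 55.9 ± 12.1 and 49.6 ± 9.86 CPM per kilobase in progenitors, astrocytes and stem cells). Dcx gave 38.4% ± 8.88 of it in progenitors, 0.04% ± 0.03 in astrocytes and 0.41% ± 0.71 in stem cells, while Dclk1, a doublecortin-like kinase, gave 49.5, 75.1 and 92.1%. Stathmins summed to 837 ± 205 CPM per kilobase in progenitors, 197 ± 144 in astrocytes and 75.8 ± 33.3 in stem cells. Stmn1 was a similar part of this sum in progenitors (68.2% ± 8.0) and stem cells (62.8% ± 8.10), and a smaller and more variable one in astrocytes (31.2% ± 19.2), where Stmn3 led with 61.1% ± 17.2. Plppr1 gave 17.3% ± 2.83 of the Plppr family in progenitors, after Plppr3 (48.1% ± 7.36) and Plppr2 (25% ± 7.92). Without length the order of the last was the reverse, with 27.5% for Plppr1 and 15.1% for Plppr2.

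**Figure D4:**
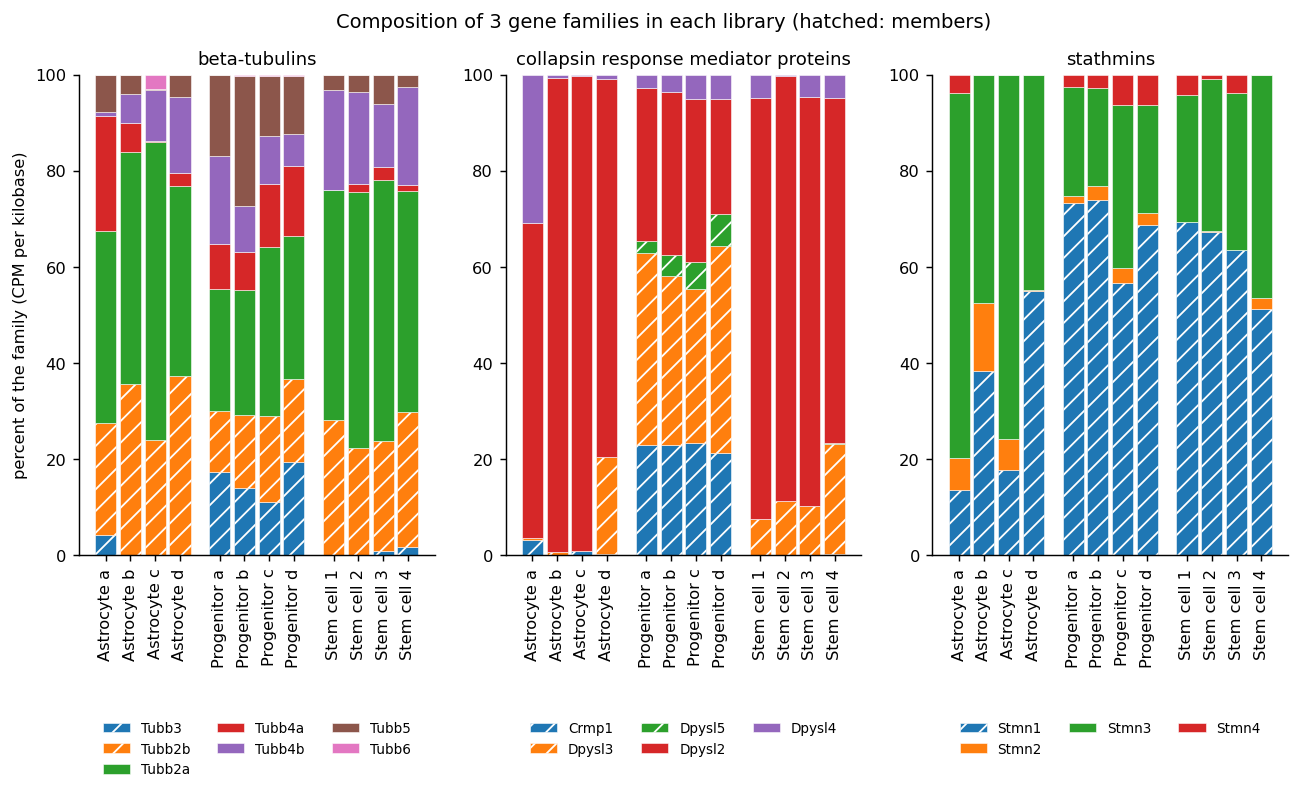
Percent of the summed CPM per kilobase of 3 families given by each gene, with 1 bar per library and the genes of the list hatched. In progenitors Tubb3 takes 11.1 to 19.4% of the beta-tubulins and Dpysl2 takes 23.8 to 34.0% of the CRMPs, against 65.5% or more in every other library. The Stmn1 part of the stathmins is 56.7 to 74.0% in progenitors and 51.2 to 69.3% in stem cells. The list was chosen by measured levels, so these shares are a description.

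To place the list in its pathway, 91 other genes of the same families and functions were tested in 9 lists. These 91 genes were chosen with earlier results of these data known. Their shares beside those of all genes are therefore a description. Between progenitors and stem cells, 83 were tested, of which 22 were higher in progenitors (26.5%, against 4.95% of all genes) and 5 lower (6.02%, against 3.66%), with a median log2 fold change of 0.80. The calls rest on edgeR's quasi-likelihood test, adjusted over all genes by the Benjamini-Hochberg method, and 17 of the 27 held whichever library was left out. Among the genes named below, those of Stmn4, Tuba1b, Tuba4a, Tubb2a, Plppr3, Kif21b and Kif1b did not hold without progenitor d, and each but Tuba4a was lost without at least 1 stem cell library too. In one fit of all 12 libraries only 7 of the 27 were called, which were Stmn3, Tuba1a, Marcks, Tmsb4x and St8sia4 among the higher and Dclk1 and Nrcam among the lower genes, so every other call given below was lost there. L1cam and St8sia4 had 0 counts in stem cells and entered the test only through progenitors, where they are high. Without them, a choice made after seeing the data, 20 of 81 genes were higher and 5 lower, with a median of 0.76. Other called genes also passed the filter through progenitors. Stmn2 and Tmsb10 reached 10 counts in 1 stem cell library each, Stmn4 in 2 and Plppr3 in 3. The count of 20 therefore removes only part of what the filter builds in. Adjusted p-values set each difference against the spread between these libraries within a cell type, without pairing.

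All 3 other stathmins rose in progenitors over stem cells. Stmn2, a growth cone stathmin, had a log2 fold change of 5.67 ± 1.14 (adjusted p = 0.0126), or 8.08 without stem cell 4. Stmn4 had 4.25 ± 0.99 (adjusted p = 0.0252), or 5.31 without stem cell 3, and Stmn3 had 2.89 ± 0.35 (adjusted p = 0.0015). Of 10 other tubulins tested, 4 rose and 2 fell. Tuba1a, the main alpha-tubulin of postmitotic neurons, rose from 861 to 3881 mean CPM (2.13 ± 0.21, adjusted p = 5.6e-04), and Tubb5, a beta-tubulin prominent in dividing precursors, rose by a similar amount (2.15 ± 0.39, adjusted p = 0.0086). Tuba1c (1.27 ± 0.22) and Tuba1b (0.90 ± 0.21) rose less, although 56.7 to 71.9% of the 75-base runs of Tuba1a, Tuba1b and Tuba1c occur in other genes, so their shares are uncertain. Tuba4a fell by 1.76 ± 0.38 on the log2 scale (adjusted p = 0.0178) and Tubb2a by 0.73 ± 0.20 (adjusted p = 0.0490). Other genes also cover 26.2% of the exonic bases of Tuba1a, 27.4% of those of Tuba1b and 37.3% of those of Tuba4a. The Tubb2a libraries overlapped, its call held in 1 of 8 fits with a library left out, and it shares 43.2% of its 75-base runs.

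The list of the doublecortin family and microtubule-associated proteins also holds Mapre1, Mapre2, Mapre3, Pafah1b1, Nde1 and Ndel1. Of its 16 genes tested, none rose and 1 fell, which was Dclk1 (-1.02 ± 0.21, adjusted p = 0.0129). Its drop from 700 to 355 mean CPM stood against the rise of its relative Dcx. Neither remaining CRMP passed the test, with 0.50 ± 0.20 for Dpysl2 and 2.22 ± 0.79 for Dpysl4. Of 4 Plppr relatives, Plppr3 rose (3.67 ± 0.91, adjusted p = 0.0335), with a call that held in 1 of 8 fits with a library left out. None of 4 IGF binding proteins tested passed by edgeR, and none had an unadjusted p under 0.05.

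The list with the most calls was that of actin and growth cone proteins, of which 7 of 15 rose and none fell. Marcksl1, which binds actin and calmodulin at the membrane, went from 19.1 to 407 mean CPM (4.38 ± 0.51, adjusted p = 0.0012). Tmsb10, a thymosin that binds actin monomers, had 4.33 ± 0.79 (adjusted p = 0.0087), or 5.11 without stem cell 2, and Fscn1, the filopodial actin bundler fascin, had 3.99 ± 0.59 (adjusted p = 0.0034). Of 12 microtubule motors, the kinesins Kif3c (2.0 ± 0.36, adjusted p = 0.0082) and Kif21b (1.45 ± 0.38, adjusted p = 0.0407) rose and Kif1b fell (-0.94 ± 0.22, adjusted p = 0.0285). Counting was unstranded, and 40.7% of the exonic bases of Kif3c are shared with other genes. Of 17 adhesion and guidance molecules, 5 rose and 1 fell, or 3 rose without L1cam and St8sia4. L1cam, an axonal adhesion molecule, had 1410 counts in progenitors and 0 in stem cells, at least 295-fold higher, and St8sia4, a polysialyltransferase, had 509 and 0 counts, at least 107-fold higher. Plxna4, a semaphorin co-receptor, had 3.75 ± 0.71 (adjusted p = 0.0100), or 4.47 without stem cell 2, while Nrcam, another adhesion molecule of the L1 family, fell by 1.31 ± 0.17 on the log2 scale (adjusted p = 0.0017).

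Against astrocytes, calls among the pathway genes went both ways, and the share called higher was near that of all genes. Astrocyte libraries also differed more among themselves. Their common biological coefficient of variation, edgeR's measure of spread between libraries, was 0.81, against 0.44 in progenitors and 0.53 in stem cells. Of 85 tested, 6 were higher in progenitors (7.06%, against 6.18% of all genes) and 6 lower (7.06%, against 2.45%), with a median log2 fold change of 0.37. The higher genes include Plppr5 and Igfbp4, which had under 10 counts in every astrocyte library and so entered the test only through progenitors. Without the 4 tested genes of this kind, 4 of 81 were higher and 6 lower, with a median of 0.32. All 12 calls were also made in one fit of all 12 libraries. Over the 6 other settings with all libraries kept, Map4 and Nrcam were called in 4 and Map2 in 5. Plppr5 was called in 4 of the 5 settings in which it was tested. Without astrocyte a, the calls were 14 higher and 8 lower. In the fits with 1 library left out, 7 of the 12 calls held throughout, and those of Cntn1, Map2, Map4, Nrcam and Tmsb4x were lost without progenitor d and without at least 1 other progenitor library. Tuba1a rose from 941 to 3881 mean CPM (2.05 ± 0.28, adjusted p = 0.0050), and was the only tubulin of 11 to pass. The actin regulators Marcks (2.80 ± 0.50, adjusted p = 0.0141) and Tmsb4x (1.98 ± 0.45, adjusted p = 0.0219) rose, as did Cntn1, an adhesion molecule anchored by lipid (2.35 ± 0.55, adjusted p = 0.0241, or 3.04 without astrocyte b). Plppr5 and Igfbp4 had 1 count each over astrocytes, in astrocytes d and c, and pooled ratios of 276 (49.4 to 10935) and 366 (65.6 to 14488).

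The 6 genes lower in progenitors than in astrocytes were 3 microtubule-associated proteins, 2 kinesins and 1 adhesion molecule. Map1a fell by 3.06 ± 0.57 on the log2 scale (adjusted p = 0.0160), Map2, the dendritic microtubule protein, by 1.84 ± 0.43 (adjusted p = 0.0241) and Map4 by 1.36 ± 0.30 (adjusted p = 0.0201). The kinesins Kif1a (-1.90 ± 0.26, adjusted p = 0.0052) and Kif1b (-1.89 ± 0.27, adjusted p = 0.0066) and the adhesion molecule Nrcam (-1.53 ± 0.35, adjusted p = 0.0215) fell as well. Map2 was at 1190, 1160, 1047 and 257 CPM in astrocytes a to d and 215 to 298 in progenitors, so astrocyte d lay among the progenitors. These are the libraries in which mature neuron markers summed to 5546, 1889, 1948 and 679 CPM (1495, 416, 450 and 219 without Camk2a). Map1a (899, 419, 310 and 178 CPM in astrocytes a to d) and Kif1a (2002, 1433, 1303 and 958) were likewise highest in astrocyte a and lowest in d. Map4 ran the other way (432, 466, 622 and 773). Nrcam (253, 665, 545 and 435) and Kif1b (603, 829, 731 and 626) were lowest in astrocyte a. The part of neuronal RNA in these differences was not tested. No other stathmin passed here, where Stmn2 was at 149, 113, 54.5 and 0.613 CPM in astrocytes.

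**Figure D5:**
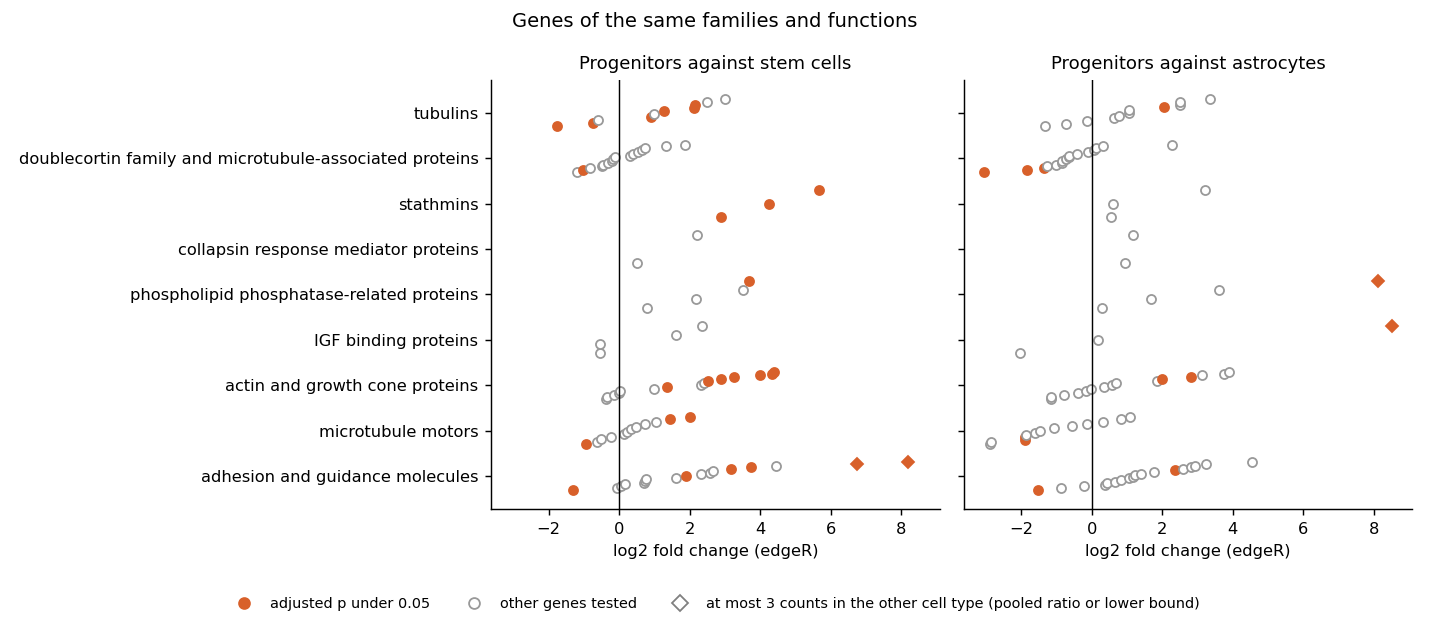
Log2 fold change of each tested gene of the 9 lists for progenitors against stem cells (left) and against astrocytes (right), with genes at an adjusted p under 0.05 filled. Diamonds are genes with at most 3 counts in the other cell type, drawn at the pooled ratio or lower bound. On the left 22 genes are called higher and 5 lower, with all 3 stathmins and 7 actin and growth cone genes to the right, and on the right 6 are called higher and 6 lower.

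Between astrocytes and stem cells, 3 of the 10 genes passed the count filter. Stmn1 had a log2 fold change of -0.05 ± 0.54 (-0.19 to 0.04 over the other settings), Tubb2b of -0.25 ± 0.28 and Dpysl3 of -2.0 ± 1.62, the last becoming -5.60 without astrocyte d and -1.39 without stem cell 4. None of the 73 pathway genes tested was called by edgeR's quasi-likelihood test, 15 had an unadjusted p under 0.05, and DESeq2 called 10, all higher in astrocytes. Over all 12831 genes edgeR called 0.0468% higher and 0% lower in astrocytes. The 7 remaining genes did not reach 10 counts in 4 of the 8 libraries. Tubb3 reached them in 3, which were astrocyte a and stem cells 3 and 4.

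Apart from Tubb2b, the genes resembled each other across all 12 libraries, which follows from how they were chosen. The Pearson correlation of log2(CPM + 1) with the mean profile of the other 9 was 0.84 to 0.98 for the others, and -0.56 for Tubb2b. Among the 16102 other genes ranked, the profiles closest to that of the list were Tfap2c, Chst5, Prkcq, Slc29a4 and Gm26871 (r = 0.98 for each, over 12 libraries that share the same 3 cell types). Tfap2c, an AP-2 transcription factor, was at 3.42 to 5.85 CPM in progenitors and 0 in all other libraries, and Prkcq, a protein kinase C, was at 83.0 to 196 CPM, against at most 1.44 elsewhere. None of the 5 was among the 5 closest by Spearman's rho, so the order of such genes depends on the measure.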

How the data were processed

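RNA of 12 libraries of 50 sorted cells (4 each of astrocytes, progenitors and stem cells) was preamplified with the SMARTer v4 kit and sequenced after Nextera XT preparation. The authors trimmed adapters, discarded reads from rRNA, mtDNA and PhiX, aligned what remained to GRCm38p4 with HISAT2 2.0.6 and quantified GENCODE M14 genes with unstranded featureCounts. The deposited table holds whole-number counts with no normalization, and all columns were used. Symbols (50376 of 50600 identifiers) and positions came from GENCODE M21 on GRCm38. Stem cell columns carry replicate numbers and the others only the cell type. The study describes its libraries as biological replicates.

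Each pair of cell types was compared on its own 8 libraries with edgeR 4.0.16 in R 4.3.3 (TMM, quasi-likelihood test, not robust, at least 10 counts in at least 4 libraries, or 3 when a library was left out). A call is a Benjamini-Hochberg adjusted p under 0.05. The SE is the size of the log2 fold change over the square root of F. The steps were tested on simulated data with the same spread in both groups, under that of the astrocyte libraries. Unequal spread and the spread of astrocytes were therefore not covered. Alternatives were DESeq2 1.42.0, DESeq2-type size factors (RLE) in edgeR, other count filters, a joint fit of the 12 libraries, thinning to the smallest library and leaving out each library, as well as other scalings of CPM, shares without length and Spearman's rho. CPM were scaled over all 12 libraries with TMM factors, and lengths are the union of exons. A group with 1 to 3 counts was compared by pooled ratio with an exact 95% interval, and one with 0 counts by a lower bound against 3 counts. The 10 genes, the 91 pathway genes and the marker lists were chosen with earlier results of these data known. Named are the 10 genes, called or related genes of their families, up to 3 called genes per direction of the other lists, the 5 genes of highest correlation, and markers of a list described. CLEAR, which needs coverage of each base, was not run.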

Additional observations from a re-analysis of the deposited data

Results flagged for a closer look

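Each of the 10 genes was examined for a library far from its replicates by Dixon's test at the 95% level, in 22 of the 30 combinations of gene and cell type (8 had at most 3 counts in every library). Chance gives about 1 in 20 such groups, and 4 libraries stood apart. Dcx was at 8.82 CPM in stem cell 1, with the other stem cell libraries at most 0.557 CPM. Dpysl3 was at 27.4 CPM in astrocyte d, with the others at most 0.913 CPM. Tubb3 was at 74.5 CPM in astrocyte a, with the others at most 0.613 CPM. Tubb2b was at 456 CPM in progenitor d, with the others at 322 to 330 CPM. The first 3 concern a different library each.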

How the results depend on the processing

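No paired analysis was possible because the astrocyte and progenitor columns carry no replicate number. Of the pathway genes, 27 were called between progenitors and stem cells, and 23 to 37 under the other normalization, tests, filters and depth, except in one fit of all 12 libraries, which called 7. With each library left out the calls were 17 to 27, lowest without progenitor d. Between progenitors and astrocytes the main count was 12, against 21 with DESeq2, and 7 to 22 with each library left out, highest without astrocyte a and lowest without progenitor d. Between astrocytes and stem cells it was 0, against 10 with DESeq2 and 3 in one fit of all 12 libraries, and 0 whichever library was left out. The causes were not tested. The median log2 fold change of the 10 genes was 8.02 against stem cells (7.62 to 9.22 with each library left out) and 7.21 against astrocytes (7.06 to 8.89). It could not be given for astrocytes against stem cells, nor with at least 10 counts in every library, since fewer than 10 of the genes passed. No called pathway gene changed its direction in any of these fits. Among the 10 genes, 2 small differences did change sign. Tubb2b in progenitors against astrocytes was between -0.37 and 0.05 with all libraries kept. Stmn1 in astrocytes against stem cells was between -0.22 and 0.28 with each library left out. Where a cell type has 0 or 1 count of a gene, depth sets the fold that can be shown.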
